A study of Mus musculus with 3 samples.

Results

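The genes described here encode the enzymes of glycolysis, the carriers that bring glucose in and lactate out, and the enzymes that gate the entry of pyruvate into mitochondria. They were chosen by name as 37 genes of the 55487 in the deposited table, and all 37 were found; Aldoa stood there in 2 rows, of which the row with most counts was used. RNA was sequenced from 3 cultures of wild-type mouse BMDCs, dendritic cells (which show antigen to T cells) derived from bone marrow: 1 treated with YB328, a gut bacterial strain, 1 treated with P. vulgatus, another gut bacterium, and 1 untreated. With 1 library per culture, none of the differences has a replicate check, and the intervals cover counting error only. All 3 libraries carry the genotype label WT. The sources used here give neither the dose, the time of exposure nor the culture method.

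Glycolysis turns glucose into pyruvate in the cytosol. Hexokinase traps glucose in the cell, phosphofructokinase sets the pace, and the later enzymes recover energy from the split sugar. Pyruvate then goes to lactate through lactate dehydrogenase, or into mitochondria through the pyruvate dehydrogenase complex. Dendritic cells that sense microbes are known to take up more glucose and release more lactate, and hypoxia-inducible factor 1 (HIF-1) is a known activator of many of these genes.

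The deposited counts summed to 26924006 with YB328, 26660870 with P. vulgatus and 15538133 in the untreated library. Levels are in CPM, depth-scaled counts made comparable between libraries, unless TPM, which also corrects for gene length, is named. A gene is said to rise, fall, or be higher or lower when it had at least 5 CPM in 1 of the libraries compared, a ratio of at least 2 after 0.5 CPM was added to each side, and a 95% counting interval of the ratio that excludes 1; log2 ratios include the added 0.5 CPM, and folds do not. The untreated library differed in RNA makeup: the share of counts in nuclear protein-coding genes, Lars2 set aside, was 96.6% with YB328, 95.3% with P. vulgatus and 57.9% untreated, and that of mitochondrial genes was 0.899% with YB328, 1.25% with P. vulgatus and 17.3% untreated. Of 12 dendritic cell markers, 12 had counts in every library, and their summed level was 12510 CPM with YB328, 12460 CPM with P. vulgatus and 9300 CPM untreated. Against untreated cells 1 of the 12 rose and 2 fell with YB328, and 1 rose and 3 fell with P. vulgatus. The gene that rose was Irf8, a transcription factor of dendritic cells, at 1607 CPM with YB328, 1389.5 CPM with P. vulgatus and 272 CPM untreated. Itgax, which encodes the integrin CD11c, fell, at 75.5 CPM with YB328, 22.6 CPM with P. vulgatus and 272 CPM untreated. Summed over 15 neutrophil markers the level was 581 CPM with YB328, 447 CPM with P. vulgatus and 4626 CPM untreated, with 0 of the 15 at zero counts in any library. Over 12 macrophage markers it was 1813 CPM with YB328, 1028 CPM with P. vulgatus and 544 CPM untreated. Of the 11 expressed, 4 rose and 1 fell with each bacterium, where 24.4% and 24.9% of all genes rose and 18.6% and 19.1% fell. Their median log2 ratio was 0.23 with YB328 and -0.20 with P. vulgatus. Over 12 genes of dividing cells the summed level was 27.5 CPM with YB328, 26.7 CPM with P. vulgatus and 282 CPM untreated. None of the macrophage or dividing cell genes was at zero counts either. Over 8 mast cell and basophil markers it was 320.4 CPM with YB328, 289 CPM with P. vulgatus and 91.3 CPM untreated, of which Hdc alone had 227 CPM with YB328, 154 CPM with P. vulgatus and 14.6 CPM untreated. Over 8 erythroid markers it was 23.6 CPM with YB328, 32.9 CPM with P. vulgatus and 66.5 CPM untreated. In bulk RNA, fewer cells of a type and less RNA per cell cannot be told apart, and the part of these markers and of the RNA makeup in the results below was not tested.

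Most glycolysis genes had their highest level with P. vulgatus. Their summed TPM made up 1.28% of that of nuclear protein-coding genes without Lars2 with YB328, 2.06% with P. vulgatus and 0.808% untreated. Among the 34 members that reached 5 CPM in any library, 6 were at their highest with YB328, 25 with P. vulgatus and 3 untreated. Over all 10699 such genes the shares were 29.7% with YB328, 30.8% with P. vulgatus and 39.6% untreated. The other 3 members, Pfkfb1, Pfkfb2 and Pdk4, were low in every library, with 90, 14 and 1 counts with YB328, 28, 20 and 3 with P. vulgatus, and 25, 1 and 3 untreated.

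In the comparison of YB328 with untreated cells, 14 of 33 expressed members rose and 2 fell, where 24.4% of all genes tested rose and 18.6% fell. Their median log2 ratio was 0.79, against 0.16 over all genes. With P. vulgatus against untreated cells, 20 of 34 members rose and 2 fell, against 24.9% and 19.1% of all genes, and the median log2 ratio was 1.64, against 0.14. These comparisons share the untreated library. In TPM 17 of 29 members tested rose and 2 fell with YB328, where 3352 of all 9128 genes tested (36.7%) rose and 1146 fell. With P. vulgatus 19 of 31 members rose and 2 fell in TPM, where 3055 of all 9090 genes (33.6%) rose and 1328 fell. The direct comparison of YB328 with P. vulgatus does not use that library, and there 1 of 33 members was higher and 8 were lower with YB328, where 2.89% of all genes were higher and 2.69% lower. The median log2 ratio was -0.79, against 0.00022 over all genes. In TPM, 2 of 30 members were higher and 7 lower, where 296 of all 8582 genes tested (3.45%) were higher and 194 lower. The counting interval of the ratio of YB328 over P. vulgatus lay above 1 for 6 of the 33 and below 1 for 23, against 35.9% and 35.1% of all genes. For YB328 over untreated it lay above 1 for 23 members and below 1 for 6, against 49% and 38.2% of all genes, and for P. vulgatus over untreated above 1 for 26 and below 1 for 3, against 48% and 39.3%. With counts of nuclear protein-coding genes alone, 14 members rose and 3 fell with YB328 (all genes 21.6% and 19.9%), and 19 rose and 2 fell with P. vulgatus (all genes 22.1% and 20.5%). In that setting 1 was higher and 8 were lower with YB328 than with P. vulgatus (all genes 3.16% and 2.6%).

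**Figure D1:**
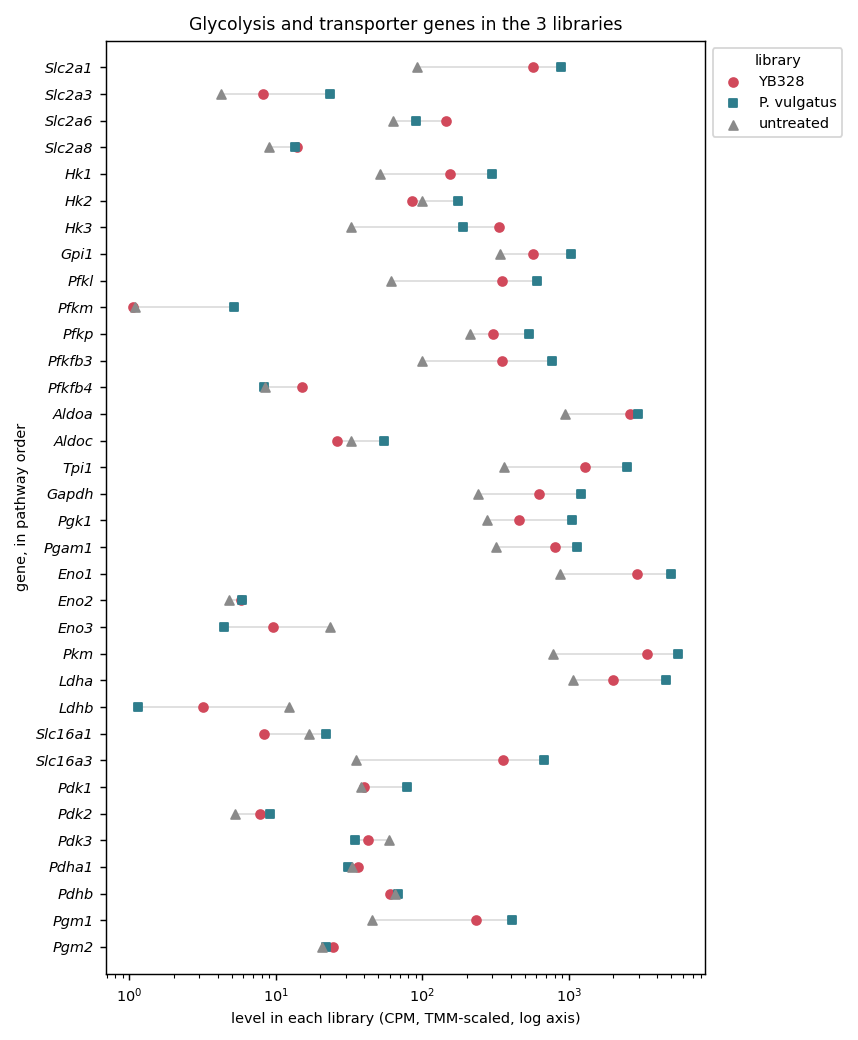
Level of each of the 34 members that reached 5 CPM, in CPM on a log axis, 1 point per library (YB328, P. vulgatus, untreated). For 25 of the 34 the P. vulgatus point is the rightmost; for Eno3, Ldhb and Pdk3 the untreated point is, at 23.6, 12.4 and 58.9 CPM.

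Since HIF-1 is a known activator of this pathway, promoters of members were examined. Ldha was higher with P. vulgatus than with either other library, a pattern that Slc2a3, Pfkm, Pfkfb3 and Pgk1 shared. Shown are the promoters of the 4 members that rose most with P. vulgatus and, as an example of that pattern, of Ldha. They are RefSeq promoters of GRCm38.p6, 250 bases before to 50 after a transcription start, 5′ to 3′ on the gene's strand, at chr11:120948817-120949116 (plus strand), chr10:78009758-78010057 (minus), chr4:119108495-119108794 (plus), chr4:99929201-99929500 (plus) and chr7:46845554-46845853 (plus). Capitals mark ACGTG, a form of the core of the hypoxia response element, on either strand, where CACGT is its reverse complement and CACGTG holds both. The other form, GCGTG, was not searched.
Slc16a3: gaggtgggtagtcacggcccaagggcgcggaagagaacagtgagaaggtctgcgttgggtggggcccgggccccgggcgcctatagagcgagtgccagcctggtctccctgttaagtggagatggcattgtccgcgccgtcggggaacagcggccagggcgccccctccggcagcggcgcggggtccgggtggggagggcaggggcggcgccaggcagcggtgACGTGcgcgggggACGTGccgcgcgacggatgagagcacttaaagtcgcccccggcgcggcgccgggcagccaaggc
Pfkl: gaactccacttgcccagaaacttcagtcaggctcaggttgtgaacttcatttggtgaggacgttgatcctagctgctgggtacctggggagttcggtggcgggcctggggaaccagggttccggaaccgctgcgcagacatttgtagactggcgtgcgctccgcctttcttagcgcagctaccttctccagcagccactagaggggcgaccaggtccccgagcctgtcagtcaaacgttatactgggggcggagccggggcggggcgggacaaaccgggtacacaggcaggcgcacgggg
Slc2a1: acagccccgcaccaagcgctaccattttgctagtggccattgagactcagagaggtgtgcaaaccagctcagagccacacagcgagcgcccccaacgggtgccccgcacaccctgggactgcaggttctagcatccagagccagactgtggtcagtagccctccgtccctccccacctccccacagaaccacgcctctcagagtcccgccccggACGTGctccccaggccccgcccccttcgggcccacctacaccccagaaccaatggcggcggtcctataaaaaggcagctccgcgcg
Pgm1: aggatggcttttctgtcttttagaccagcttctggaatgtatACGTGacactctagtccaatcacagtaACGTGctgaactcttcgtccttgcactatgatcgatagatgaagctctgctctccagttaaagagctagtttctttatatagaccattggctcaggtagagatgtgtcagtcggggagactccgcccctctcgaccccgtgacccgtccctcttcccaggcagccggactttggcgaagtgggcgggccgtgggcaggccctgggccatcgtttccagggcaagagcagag
Ldha: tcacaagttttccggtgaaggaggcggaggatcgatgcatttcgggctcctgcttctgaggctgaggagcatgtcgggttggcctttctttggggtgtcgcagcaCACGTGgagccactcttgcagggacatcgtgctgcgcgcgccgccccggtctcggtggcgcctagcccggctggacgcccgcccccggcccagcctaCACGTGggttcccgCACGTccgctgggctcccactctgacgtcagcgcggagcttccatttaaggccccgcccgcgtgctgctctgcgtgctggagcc
Slc16a3 held ACGTG 27 and 14 bases before the start, Slc2a1 at 36 and Pgm1 at 208 and 181, counted from the first base of each match. Ldha held 3, at 145, 48 and 34 bases before the start, of which the first and second were CACGTG. Where a gene had several promoters, the one with most matches is shown. The Ldha promoter shown held more matches than any other member promoter. The other Ldha promoter, at chr7:46846832-46847131, held 0. Pfkl, which rose 9.90-fold with P. vulgatus, had no ACGTG in this window, though its sequence holds the unsearched form GCGTG. RefSeq promoters were found for 36 of the 37 members, and 25 of their 55 promoters (45.5%) held ACGTG, against 19.6% of all 32851 promoters of the same length. ACGTG contains a CpG, and member promoters held a median of 16 CpG dinucleotides against 7 over all promoters. The part of CpG content in the difference was not tested, nor was the part of HIF-1 in the change of any gene. At least 1 promoter held ACGTG in 13 of the 19 members that rose with P. vulgatus and have a promoter, and in 8 of the other 17. For YB328 it was in 10 of the 14 that rose and 11 of the other 22. Counted in this way, by gene, the share over all genes was 21.8%.

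Glucose transporters came first in the pathway, and their lead member was among the most raised. Slc2a1 (ENSMUSG00000028645.11, chromosome 4, 119108711 to 119137983), the main glucose carrier of the plasma membrane, had 567 CPM with YB328, 883 CPM with P. vulgatus and 91.3 CPM untreated. It rose 6.21-fold (95% interval 5.88 to 6.56) with YB328 and 9.68-fold (9.17 to 10.2) with P. vulgatus. Slc2a3, a high-affinity glucose carrier, had 8.15 CPM with YB328, 23.4 CPM with P. vulgatus and 4.19 CPM untreated. It rose 5.59-fold with P. vulgatus, did not pass with YB328, and was 2.88-fold lower (2.46 to 3.37) with YB328 than with P. vulgatus. Slc2a6, a transporter of inner membranes in myeloid cells, ran the other way, at 145 CPM with YB328, 89.9 CPM with P. vulgatus and 63.0 CPM untreated. It rose 2.30-fold (2.15 to 2.47) with YB328. Its ratios of 1.43 (1.32 to 1.54) for P. vulgatus over untreated and 1.61 (1.53 to 1.70) for YB328 over P. vulgatus did not pass. Slc2a8, an intracellular carrier, had 13.9 CPM with YB328, 13.4 CPM with P. vulgatus and 8.91 CPM untreated and did not pass, though in TPM its log2 ratio of 1.02 with YB328 did. Within the family, Slc2a1 took 70.1% of the TPM with YB328, 83.7% with P. vulgatus and 50.9% untreated, and Slc2a6 took 26.1% with YB328, 12.6% with P. vulgatus and 41.2% untreated.

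The hexokinases showed a different isozyme in the lead in each library. Hk3 (ENSMUSG00000025877.14, chromosome 13, 55005985 to 55021385), the hexokinase of myeloid cells, had 332 CPM with YB328, 188 CPM with P. vulgatus and 32.7 CPM untreated. It rose 10.2-fold (9.30 to 11.1) with YB328 and 5.76-fold (5.26 to 6.32) with P. vulgatus, and its ratio of YB328 over P. vulgatus, 1.77 (1.71 to 1.83), did not pass. Hk1 (ENSMUSG00000037012.18, chromosome 10, 62268855 to 62379908), the widely expressed form, had 155 CPM with YB328, 298 CPM with P. vulgatus and 50.98 CPM untreated. It rose 3.04-fold (2.82 to 3.28) with YB328 and 5.84-fold (5.43 to 6.29) with P. vulgatus. Hk2, the inducible form of muscle and of growing cells, had 84.4 CPM with YB328, 174 CPM with P. vulgatus and 98.9 CPM untreated. Hk2 did not pass against untreated cells in either comparison, and was 2.06-fold lower (1.96 to 2.17) with YB328 than with P. vulgatus, a difference that did not pass in TPM. By TPM, Hk3 made up 58.6% of hexokinase RNA with YB328, 29.8% with P. vulgatus and 16.0% untreated, and Hk1 made up 25.4% with YB328, 42.8% with P. vulgatus and 23.1% untreated. Hk2 made up 16.0% with YB328, 27.4% with P. vulgatus and 60.9% untreated. The 3 genes together held 212 TPM with YB328, 221 TPM with P. vulgatus and 59.4 TPM untreated. A share within a library does not depend on scaling between libraries, and in counts the Hk3 share was 58.1% with YB328 (95% Clopper-Pearson interval 57.3 to 58.9), 28.5% with P. vulgatus (27.8 to 29.2) and 17.9% untreated (16.5 to 19.4).

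**Figure D2:**
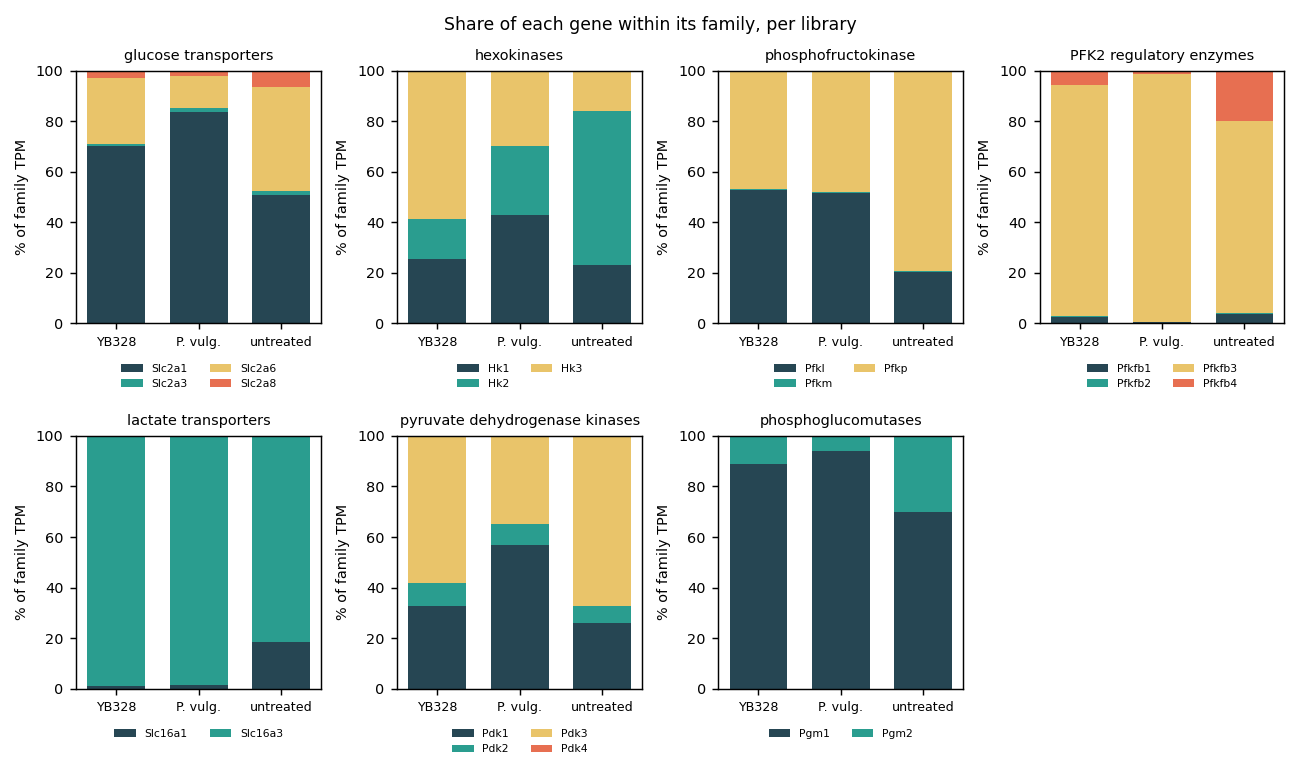
Share of each gene in the summed TPM of its family, in percent, for 7 families in the YB328, P. vulgatus and untreated libraries. In the hexokinase panel Hk3 takes 58.6% with YB328, Hk1 takes 42.8% with P. vulgatus and Hk2 takes 60.9% untreated.

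The phosphofructokinase step held a shift between liver-type and platelet-type genes. Pfkl (ENSMUSG00000020277.10, chromosome 10, 77986947 to 78010083), the liver-type subunit, had 348 CPM with YB328, 602 CPM with P. vulgatus and 60.8 CPM untreated, and rose 5.72-fold (5.35 to 6.12) with YB328 and 9.90-fold (9.27 to 10.6) with P. vulgatus. Pfkp, the platelet-type subunit, had 303 CPM with YB328, 536 CPM with P. vulgatus and 209.9 CPM untreated. It rose 2.56-fold with P. vulgatus, and its ratio of 1.45 with YB328 did not pass. Pfkl made up 53.0% of the family's TPM with YB328, 51.5% with P. vulgatus and 20.2% untreated. Pfkm, the muscle-type subunit, was low, at 1.06 CPM with YB328, 5.19 CPM with P. vulgatus and 1.10 CPM untreated. It rose 4.73-fold (2.85 to 8.35) with P. vulgatus and was 4.87-fold lower with YB328 than with P. vulgatus, calls that were lost in TPM, where it lay under the minimum; it also overlaps Senp1 on the other strand, and the library method does not mark strand.

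Pfkfb3 (ENSMUSG00000026773.19, chromosome 2, 11471433 to 11554077) makes fructose 2,6-bisphosphate, the activator of phosphofructokinase. It had 349 CPM with YB328, 767 CPM with P. vulgatus and 99.1 CPM untreated. The rise was 3.52-fold (3.34 to 3.72) with YB328 and 7.74-fold (7.34 to 8.15) with P. vulgatus, and the level was 2.20-fold lower (2.14 to 2.25) with YB328 than with P. vulgatus. Its relative Pfkfb4 had 15.0 CPM with YB328, 8.25 CPM with P. vulgatus and 8.45 CPM untreated and did not pass in CPM, though its log2 ratio of YB328 over P. vulgatus, 1.02 in TPM, did. Pfkfb3 took 91.4% of the family's TPM with YB328, 98.0% with P. vulgatus and 76.1% untreated.

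The enzymes from Gpi1 to Ldha include the most abundant members, and the main gene of each step is taken here. Of the 9 genes Gpi1, Aldoa, Tpi1, Gapdh, Pgk1, Pgam1, Eno1, Pkm and Ldha, 6 rose with YB328 and 9 rose with P. vulgatus. Over all genes 24.4% and 24.9% rose. The 9 leave out the minor isozymes, which are given below. Their ratios over untreated were 1.64 to 4.41 with YB328 and 3.06 to 7.14 with P. vulgatus. The ratios of these 9 genes for YB328 over P. vulgatus were 0.432 to 0.879, and 2 of the 9 passed as lower, against 2.69% of all genes. Pkm (ENSMUSG00000032294.17, chromosome 9, 59656368 to 59679375), the pyruvate kinase that makes pyruvate, had 3439 CPM with YB328, 5565 CPM with P. vulgatus and 779 CPM untreated. It rose 4.41-fold (4.33 to 4.50) with YB328 and 7.14-fold (7.01 to 7.28) with P. vulgatus. Eno1, the main enolase, had 2901 CPM with YB328, 4954 CPM with P. vulgatus and 876 CPM untreated, a rise of 3.31-fold with YB328 and 5.66-fold with P. vulgatus. The triose phosphate isomerase gene Tpi1 had 1280.7 CPM with YB328, 2503 CPM with P. vulgatus and 363 CPM untreated, a rise of 3.53-fold with YB328 and 6.90-fold with P. vulgatus. Among the 9, Aldoa, the main aldolase, differed least between the bacteria, at 2611 CPM with YB328, 2971 CPM with P. vulgatus and 935 CPM untreated. It rose 2.79-fold with YB328 and 3.18-fold with P. vulgatus. Gapdh, whose enzyme oxidises the triose, had 626 CPM with YB328, 1206.5 CPM with P. vulgatus and 241 CPM untreated, and rose 2.60-fold with YB328 and 5.01-fold with P. vulgatus. The mutase gene Pgam1 had 803 CPM with YB328, 1134 CPM with P. vulgatus and 317 CPM untreated, and rose 2.53-fold with YB328 and 3.58-fold with P. vulgatus. The isomerase gene Gpi1 had 566 CPM with YB328, 1037.5 CPM with P. vulgatus and 339 CPM untreated. It rose 3.06-fold with P. vulgatus, and its ratio of 1.67 with YB328 did not pass.

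Pgk1 and Ldha were raised with P. vulgatus and set the bacteria apart. Ldha (ENSMUSG00000063229.15, chromosome 7, 46841475 to 46855627) encodes the subunit of lactate dehydrogenase that favours lactate. It had 2005 CPM with YB328, 4605 CPM with P. vulgatus and 1073 CPM untreated, a rise of 4.29-fold (4.22 to 4.36) with P. vulgatus and a level 2.30-fold lower (2.27 to 2.32) with YB328 than with P. vulgatus. Pgk1 (ENSMUSG00000062070.12, chromosome X, 106187100 to 106203699), phosphoglycerate kinase, had 454 CPM with YB328, 1051 CPM with P. vulgatus and 277 CPM untreated. It rose 3.80-fold (3.68 to 3.92) with P. vulgatus and was 2.32-fold lower (2.27 to 2.37) with YB328 than with P. vulgatus. Against untreated cells the ratios with YB328, 1.87 for Ldha and 1.64 for Pgk1, did not pass in CPM, and in TPM they did, with log2 ratios of 1.12 and 1.13.

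Some of these genes share reads with near-identical copies, so their own levels are uncertain. Copies were found by gene name, and any under unrelated names were not counted. Eno1b took 20.9% of the summed counts of Eno1 and Eno1b with YB328, 20.3% with P. vulgatus and 20.2% untreated. Copies took 18.8% of the Gapdh sum with YB328, 19.5% with P. vulgatus and 20.6% untreated, and 23.5% of the Pgam1 sum with YB328, 22.7% with P. vulgatus and 16.9% untreated. For Pgk1 the copies took 20.2% with YB328, 19.0% with P. vulgatus and 7.003% untreated. With the copies added, an alternative chosen after seeing the data, no call of Eno1, Gapdh, Pgam1, Pgk1, Ldha, Tpi1, Aldoa or Gpi1 changed, and the Pgk1 ratio was 1.91 with YB328, 4.36 with P. vulgatus and 0.438 for YB328 over P. vulgatus.

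The minor isozymes of aldolase, enolase and lactate dehydrogenase did not rise with either bacterium. Eno3, the enolase best known from muscle, had 9.54 CPM with YB328, 4.43 CPM with P. vulgatus and 23.6 CPM untreated. It fell 2.47-fold (2.10 to 2.91) with YB328 and 5.32-fold (4.31 to 6.61) with P. vulgatus. Between the bacteria it was 2.15-fold higher (1.72 to 2.70) with YB328, which did not pass when 2 CPM were added or 20 CPM were asked. Ldhb, the lactate dehydrogenase subunit of heart, had 3.16 CPM with YB328, 1.14 CPM with P. vulgatus and 12.4 CPM untreated. It fell 3.92-fold (3.03 to 5.12) with YB328 and 10.9-fold (7.40 to 16.6) with P. vulgatus, and lay under the minimum for both bacteria. Ldhb held 0.202% of the family's TPM with YB328, 0.0315% with P. vulgatus and 1.65% untreated. Aldoc, the aldolase of brain, had 26.3 CPM with YB328, 55.0 CPM with P. vulgatus and 32.3 CPM untreated, did not pass against untreated cells, and was 2.09-fold lower with YB328 than with P. vulgatus. Eno2, the neuronal enolase, stood at 5.76 CPM with YB328, 5.83 CPM with P. vulgatus and 4.78 CPM untreated and did not pass.

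The lactate carriers held the largest ratio of all members. Slc16a3 (ENSMUSG00000025161.16, chromosome 11, 120948480 to 120960868) encodes the carrier that exports lactate from glycolytic cells. It had 356 CPM with YB328, 681 CPM with P. vulgatus and 35.3 CPM untreated, a rise of 10.1-fold (9.26 to 11.02) with YB328 and 19.3-fold (17.7 to 21.0) with P. vulgatus. The ratio of YB328 over P. vulgatus was 0.523 (0.511 to 0.536), just short of passing. Slc16a3 overlaps Csnk1d on the other strand, which had 6236 counts with YB328, 6588 with P. vulgatus and 1594 untreated, and reads of the overlap cannot be told apart without strand. Slc16a1, a carrier that moves lactate either way, had 8.33 CPM with YB328, 22.0 CPM with P. vulgatus and 16.8 CPM untreated. It was 2.64-fold lower (2.26 to 3.09) with YB328 than with P. vulgatus. Against untreated cells its log2 ratio with YB328 was -0.97, short of passing, and it passed at -1.12 when scaling used nuclear protein-coding genes only. In TPM Slc16a1 had 2.38 with YB328, 5.85 with P. vulgatus and 3.13 untreated. There YB328 and untreated were closer, and both lay under the minimum. By TPM, Slc16a3 made up 99.0% of this pair with YB328, 98.6% with P. vulgatus and 81.6% untreated. Bsg, whose product basigin carries these transporters to the membrane, had 283 CPM with YB328, 493 CPM with P. vulgatus and 124 CPM untreated and rose with both.

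Of the genes at the gate to the mitochondria, only Pdk1 passed in CPM. Pdha1 and Pdhb, the subunits of the first enzyme of pyruvate dehydrogenase, had 36.2 and 60.4 CPM with YB328, 31.2 and 67.7 CPM with P. vulgatus and 33.0 and 64.9 CPM untreated, and did not pass in any comparison. Pdk1, a kinase that turns the complex off and a known HIF-1 target, had 39.6 CPM with YB328, 78.7 CPM with P. vulgatus and 38.0 CPM untreated. It rose 2.07-fold (1.89 to 2.27) with P. vulgatus, a call lost at a log2 ratio of 0.90 when scaling used nuclear protein-coding genes only. In TPM Pdk1 differed more, at 14.4 with YB328, 31.7 with P. vulgatus and 9.92 untreated. Its log2 ratio of YB328 over P. vulgatus was -0.98, short of passing, and passed at -1.11 in TPM. The kinases Pdk3 and Pdk2 did not pass, at 42.5 and 7.74 CPM with YB328, 34.6 and 9.05 CPM with P. vulgatus and 58.9 and 5.29 CPM untreated. Pdk1 made up 32.8% of the TPM of the 4 kinases with YB328, 57.0% with P. vulgatus and 26.0% untreated, and Pdk3 made up 58.0% with YB328, 34.8% with P. vulgatus and 67.1% untreated.

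At the branch to glycogen, the phosphoglucomutases differed from each other. Pgm1 (ENSMUSG00000025791.18, chromosome 4, 99929414 to 99987294), which interconverts the glucose phosphates of glycolysis and glycogen, had 233 CPM with YB328, 410.04 CPM with P. vulgatus and 45.2 CPM untreated. It rose 5.15-fold (4.76 to 5.58) with YB328 and 9.07-fold (8.40 to 9.80) with P. vulgatus. Pgm2, whose human counterpart acts mainly on pentose phosphates, had 24.4 CPM with YB328, 22.1 CPM with P. vulgatus and 20.8 CPM untreated and did not pass. The mouse genes Pgm1 and Pgm2 have exchanged names between annotations, and the names here are those of the table, with Pgm1 on chromosome 4 and Pgm2 on chromosome 5.

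**Figure D3:**
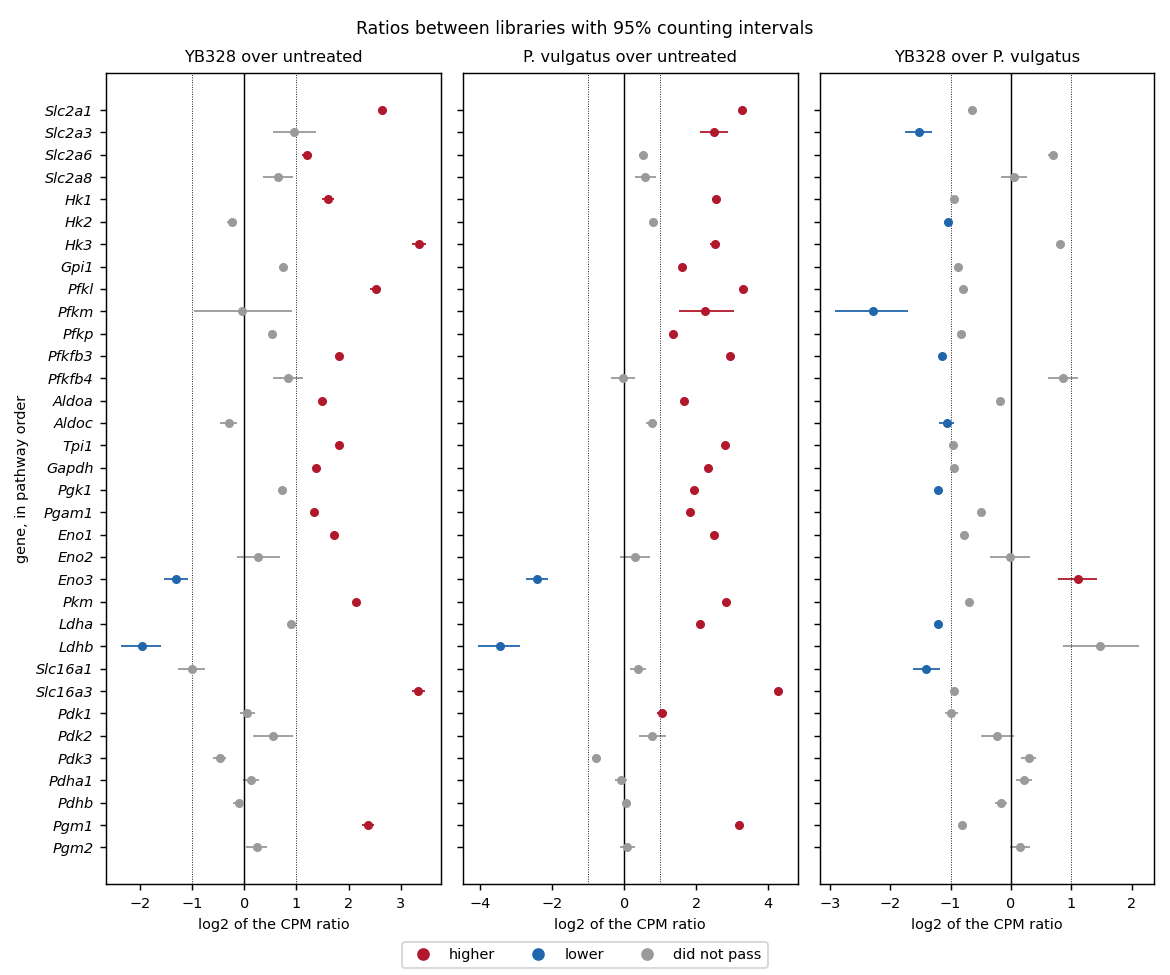
Log2 of the CPM ratio of each of the 34 members that reached 5 CPM, with its 95% counting interval, in 3 comparisons, coloured by whether the gene was higher, lower or did not pass; dotted lines mark a log2 ratio of 1 and -1. In the comparison of YB328 with P. vulgatus 8 genes are lower, and Tpi1, Gapdh, Hk1, Slc16a3 and Pdk1 lie just inside the line, with log2 ratios, after adding 0.5 CPM, of -0.97, -0.95, -0.94, -0.93 and -0.98.

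Neighbouring pathways were set beside the members. Genes in these lists were called in CPM only. Over all genes, 24.4% rose and 18.6% fell with YB328, 24.9% rose and 19.1% fell with P. vulgatus, and 2.89% were higher and 2.69% lower with YB328 than with P. vulgatus, and many of the counts in these short lists lie near those shares. Of 19 expressed regulators of glycolysis 7 rose and 1 fell with YB328, and 6 rose and 1 fell with P. vulgatus, with median log2 ratios of 0.45 and 0.70. Hif1a, the oxygen-regulated subunit of HIF-1, had 146 CPM with YB328, 166 CPM with P. vulgatus and 56.3 CPM untreated and rose with both. Egln3, a HIF hydroxylase that is itself a HIF target, had 122 CPM with YB328, 270.0 CPM with P. vulgatus and 15.6 CPM untreated. The hydroxylase genes Egln3 and Egln1 were the 2 regulators of 18 that were lower with YB328 than with P. vulgatus. Myc, a growth regulator that can also drive glycolysis, fell, at 4.11 CPM with YB328, 4.32 CPM with P. vulgatus and 36.3 CPM untreated.

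Of 12 expressed glycogen genes, 4 rose and 1 fell with YB328 (all genes 24.4% and 18.6%), and 4 rose and 4 fell with P. vulgatus (all genes 24.9% and 19.1%). Gys1, the glycogen synthase, had 107 CPM with YB328, 264 CPM with P. vulgatus and 28.1 CPM untreated, rose with both and was lower with YB328 than with P. vulgatus. Gbe1, the branching enzyme, also rose, at 55.6 CPM with YB328, 73.0 CPM with P. vulgatus and 15.7 CPM untreated. Phkb, a subunit of the kinase that triggers glycogen breakdown, had 14.1 CPM with YB328, 5.49 CPM with P. vulgatus and 20.8 CPM untreated; it fell with P. vulgatus and was higher with YB328 than with P. vulgatus.

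Of 9 expressed pentose phosphate genes 2 rose and 1 fell with each bacterium, the rises being G6pdx and H6pd, which open the pathway. G6pdx had 209 CPM with YB328, 174 CPM with P. vulgatus and 58.8 CPM untreated. Rpia was the gene that fell. Among 20 genes of the tricarboxylic acid cycle 0 rose with either bacterium, 3 fell with YB328 and 4 with P. vulgatus, with median log2 ratios of 0.24 and 0.0046. Idh2 and Idh3a, isocitrate dehydrogenase genes, were among those that fell, with Idh2 at 12.6 CPM with YB328, 7.88 CPM with P. vulgatus and 32.0 CPM untreated. Mdh1, a malate dehydrogenase gene, did not pass in CPM. In TPM it had 131.9 with YB328, 95.9 with P. vulgatus and 41.5 untreated. Of the 6 genes of pyruvate entry, Pcx, the pyruvate carboxylase, rose, at 14.1 CPM with YB328, 13.7 CPM with P. vulgatus and 2.26 CPM untreated. The mitochondrial pyruvate carriers Mpc1 and Mpc2 did not pass in CPM. Mpc1 had 143 CPM with YB328, 104 CPM with P. vulgatus and 78.4 CPM untreated, and Mpc2 had 31.0 CPM with YB328, 32.4 CPM with P. vulgatus and 45.0 CPM untreated. In TPM Mpc1 differed more, at 399.5 with YB328, 271.6 with P. vulgatus and 126.7 untreated.

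Of 23 other isozymes and carriers 6 were expressed, of which 0 rose and 3 fell with each bacterium (Adpgk, Galm and Slc16a6). Among them Adpgk, an ADP-dependent glucokinase, had 8.84 CPM with YB328, 4.09 CPM with P. vulgatus and 27.2 CPM untreated, fell with both and was higher with YB328 than with P. vulgatus. Of the partners, brakes and gluconeogenic genes 3 rose with each bacterium (Bsg, Emb and Arrdc4), and 2 of 10 fell with YB328 (G6pc3 and Pck1) and 0 of 11 with P. vulgatus. Txnip, a brake on glucose uptake, stood at 103 CPM with YB328, 127 CPM with P. vulgatus and 194 CPM untreated and did not pass in CPM. In TPM Txnip lay further below untreated, at 43.219 with YB328, 50.954 with P. vulgatus and 149.61 untreated. The gluconeogenic gene Fbp1 was under the minimum, at 2.31 CPM with YB328, 2.54 CPM with P. vulgatus and 4.52 CPM untreated.

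**Figure D4:**
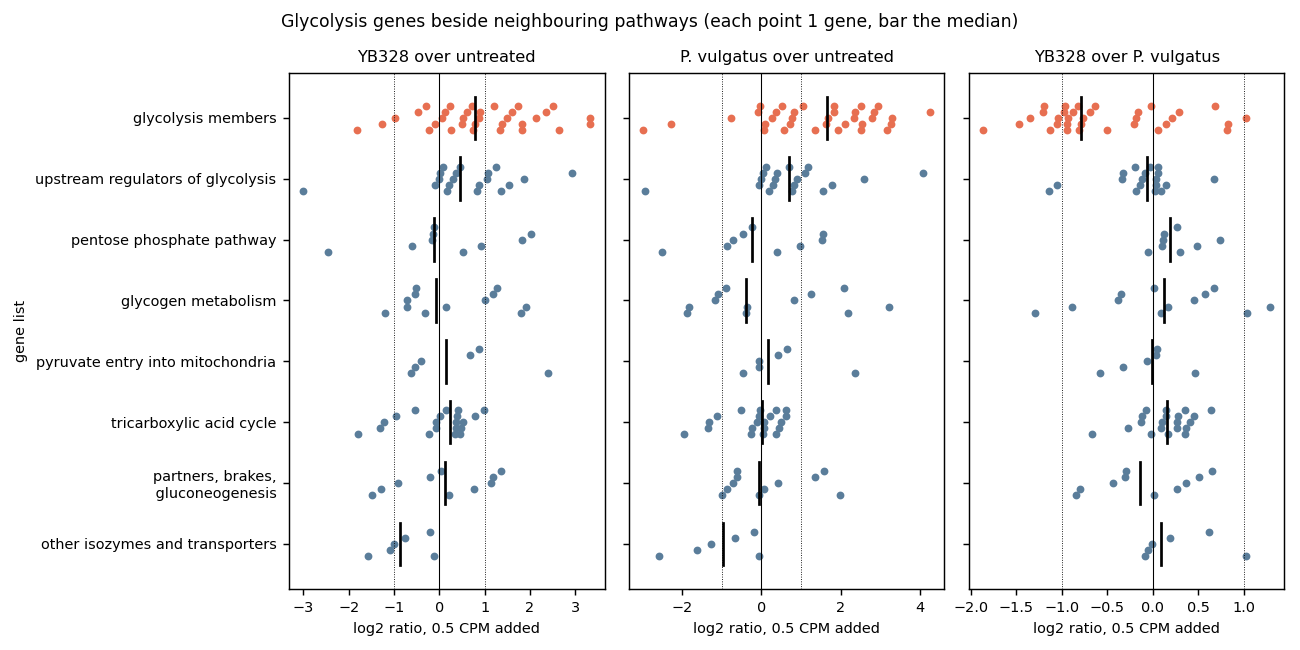
Log2 ratio after adding 0.5 CPM of each expressed gene in the glycolysis list and 7 neighbouring lists, in 3 comparisons, 1 point per gene, with a black bar at the median of each list. With YB328 over P. vulgatus the glycolysis median lies at -0.79, and that of the tricarboxylic acid cycle at 0.15.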

How the data were processed

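RNA of 3 BMDC cultures was sequenced, 1 library each. Per the labels' protocols, the RNeasy Micro kit gave the RNA, SMART-Seq v4 the cDNA and Nextera XT the libraries, a method that does not mark strand. DRAGEN and GRCm38 are named per the submitters' processing notes; the sources used here name no counting tool or annotation release. The authors deposited, per the file headers, TPM values and estimated counts (expected counts), of which 9.99% with YB328, 9.38% with P. vulgatus and 8.86% untreated were not whole; these were rounded for intervals.

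Counts were scaled by TMM with edgeR 4.0.16 in R 4.3.3 (size factors only); intervals and figures came from Python 3.11.15 with matplotlib 3.10.9, pandas 2.3.3, scipy 1.17.1 and numpy 2.4.6. At 1 library per group there is no test and no p-value: a gene passed by the rule of size given above, with exact 95% Clopper-Pearson intervals of the ratio of counts given their sum. PCR copies are not separate molecules and no molecular identifiers were used, so intervals may be too narrow. The rule was run on simulated counts with a profile shared by all libraries, counting error only and changes well above its limit. Such data cannot show how the rule works near a ratio of 2 or when RNA makeup differs. Members, lists and the rule for named genes (all members, list genes past the rule with the largest ratios, and 7 more named whatever their values) were chosen with earlier results of these data known.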

Additional observations from a re-analysis of the deposited data

How the results depend on the processing

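No paired analysis was possible because each group has 1 library. Besides the settings reported, 9 others were tried: scaling by total counts, by median-of-ratios, by nuclear protein-coding genes without Lars2 and by TMM that left out each library's 10 most abundant genes, deposited TPM, no minimum level, at least 20 CPM, and 0.1 or 2 CPM added. No called member changed sign under any of them. The number of members that fell was 1 with YB328 and 1 with P. vulgatus when 20 CPM were asked; the number higher with YB328 than with P. vulgatus was 2 in TPM, 3 with no minimum, and 0 with at least 20 CPM or 2 CPM added. The median log2 ratio of members with YB328 was 0.66 with nuclear genes alone, 1.13 in TPM and 1.27 with 20 CPM; with P. vulgatus it was 1.49, 1.72 and 1.88 in that order, 1.35 with no minimum and 1.48 with 2 CPM added. For YB328 over P. vulgatus it was -0.76 with total counts, -0.71 in TPM and -0.69 with no minimum. The median of all genes moved with the scaling too: with YB328 to 0.03 with nuclear genes alone and 0.61 in TPM, and with P. vulgatus to 0.01 and 0.49. In TPM 36.7% of all genes were higher with YB328 and 33.6% with P. vulgatus, and with nuclear genes alone 21.6% and 22.1% were. Over all genes, 56.8% of the calls with YB328 were higher and 74.5% in TPM; with P. vulgatus these were 56.5% and 69.7%, and for YB328 over P. vulgatus 51.7% and 60.4%. The summed share of members over all genes was 1.19% with YB328, 1.88% with P. vulgatus and 0.388% untreated, and in counts over nuclear genes 1.87%, 3.12% and 1.09%. Depth limits only the low members: Pfkm, Pfkfb1, Pfkfb2, Ldhb and Pdk4 rest on few counts.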
